A study of Mus musculus with 6 samples.

Results

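Chemokines, myeloid growth factors and leukocyte adhesion molecules are the signals by which a tissue attracts, holds and feeds its immune cells. The 10 genes described here, chosen by symbol, are the chemokines Cxcl12, Cxcl13, Cxcl14, Cx3cl1 and Ccl2, the growth factors Il34 and Csf1, the alarmin Il33 and the adhesion molecules Vcam1 and Icam1. All 10 were listed among the 17666 genes measured by RNA sequencing of the mouse auditory nerve. The genes were brought together with their values in this comparison already known, so those values, and the calls made on them, are a description and not independent evidence.

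The libraries came from young adult C57 mice, 1.5 to 2.5 months old. Nerves of mice labelled FactorB KO, which by that label lack complement factor B, were set against those of wildtype mice, so the question is what differs when this protease of innate immunity is missing. There were 3 libraries of each label, and each held RNA from the nerves dissected out of the 2 cochleas of 1 mouse. The labels name no substrain of C57, no allele and no littermate control, so a difference of background cannot be told apart from one of genotype. Values are normalized counts, that is, gene counts that the authors scaled per library and rounded, and they summed to between 38675077 and 41496282 per library. The read depth behind them is unknown.

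Some features of the libraries bear on every result. Cfb, the targeted gene, had 336, 351 and 376 normalized counts in libraries labelled knockout, against 55, 39 and 116 in those labelled wildtype. Its RNA was thus higher, not lower, under the knockout label. Counts per gene cannot show whether a working product is made, and the reason was not tested. All directions given here refer to the label of a library. Nerve transcripts were abundant in every library: Mbp, a marker of myelinating Schwann cells, and Calb2 and Snap25, the most abundant markers of neurons, each had at least 59190 normalized counts. Coch, a marker of the cochlear lateral wall, had 300615 to 620615, so neighbouring tissue was included. Wildtype replicate 3 stood apart most often. It was the highest or the lowest of the 6 libraries in 53.9% of all genes and in 6 of the 10 genes described here. Knockout replicate 1 was so in 18.3% of all genes and also in 6 of the 10, 5 of them as the highest. Wildtype replicate 2 was so in 44.6% of all genes and in 1 of the 10. Leaving out wildtype replicate 3 changed calls among the 10 genes, which leaving out any other single library did not. Differences of the 10 genes are therefore also given without wildtype replicate 3.

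Chemokines are small secreted proteins that bind receptors of leukocytes and steer their migration. Growth factors of the CSF-1 receptor keep macrophages alive, and the cochlear nerve holds resident macrophages that depend on such signals. On endothelium, chemokines trigger leukocyte integrins, which then bind the immunoglobulin-type adhesion molecules VCAM-1 and ICAM-1 and stop the rolling cell. In bulk tissue, fewer cells of a type and less RNA per cell cannot be told apart.

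Promoters of 7 of the 10 genes were matched in RefSeq (GRCm38.p6). Shown here are the 250 bases before the start of Cxcl13 (chr5:95956689-95956938, plus strand), the gene with the largest difference, and of Csf1 (chr3:107760470-107760719, minus strand) and Icam1 (chr9:21015690-21015939, plus strand), the partners of Il34 and Vcam1. Capitals mark GGGNNTT, letters looser than the first 7 of a common form of NF-kB site, and TATAAA, the TATA box, each on either strand.
Cxcl13: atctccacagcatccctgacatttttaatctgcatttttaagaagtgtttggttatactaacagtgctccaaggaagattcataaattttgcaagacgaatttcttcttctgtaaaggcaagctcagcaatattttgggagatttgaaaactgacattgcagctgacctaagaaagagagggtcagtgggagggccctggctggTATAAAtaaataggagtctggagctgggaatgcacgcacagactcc
Csf1: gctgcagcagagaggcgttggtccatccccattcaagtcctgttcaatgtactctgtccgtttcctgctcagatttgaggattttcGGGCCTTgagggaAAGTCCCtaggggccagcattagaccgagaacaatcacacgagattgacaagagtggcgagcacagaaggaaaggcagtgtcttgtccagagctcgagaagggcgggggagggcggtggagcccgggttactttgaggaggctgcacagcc
Icam1: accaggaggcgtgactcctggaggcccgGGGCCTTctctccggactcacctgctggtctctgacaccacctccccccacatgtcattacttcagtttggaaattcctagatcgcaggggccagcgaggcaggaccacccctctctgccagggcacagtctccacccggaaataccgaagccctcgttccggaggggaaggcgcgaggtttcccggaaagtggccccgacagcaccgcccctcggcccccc
GGGNNTT was in 41.2% and TATAAA in 12.4% of 32851 mouse promoters of the same length, and a match describes letters only. A match of these 7 letters is not a whole NF-kB site, and other forms of the site were left unmarked. The form GGGNNTT was taken after a longer form of the NF-kB site had been searched, and which of these promoters match depends on the form: the longer one also matched Cxcl13. Cxcl13 held TATAAA, beginning 46 bases before the start, and no GGGNNTT. Csf1 held 2 matches of GGGNNTT, beginning 164 and 151 bases before the start, and Icam1 held 1, beginning 222 bases before it. Neither held TATAAA.

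Across the 10 genes, 3 were lower in the libraries labelled knockout with values that did not overlap between labels: Cxcl13 (0.125 of the wildtype mean), Vcam1 (0.364) and Il34 (0.591). Csf1 and Cx3cl1 were higher without overlap, by 1.28-fold and 1.12-fold. The remaining 5 overlapped. Over all 17666 genes, values of the labels did not overlap in 14.9% lower and 13.6% higher. By limma over all genes, 0 of the 10 passed an adjusted p of 0.05, against 0.158% of all genes (0.102% higher, 0.0566% lower). Before adjustment 3 were under 0.05, all lower, against 20.0% of all genes (10.8% higher, 9.20% lower). The authors' deposited table gave a false discovery rate for 9 of the 10 and put 3 under 0.05, the same 3 genes, all lower, against 3.25% of its rated genes lower. Without wildtype replicate 3, limma called these 3 genes and none of the other 7, against 3.21% of all genes (2.54% higher, 0.663% lower). The median log2 difference was 0.16 over the 10 genes and 0.0060 over all genes.

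**Figure D1:**
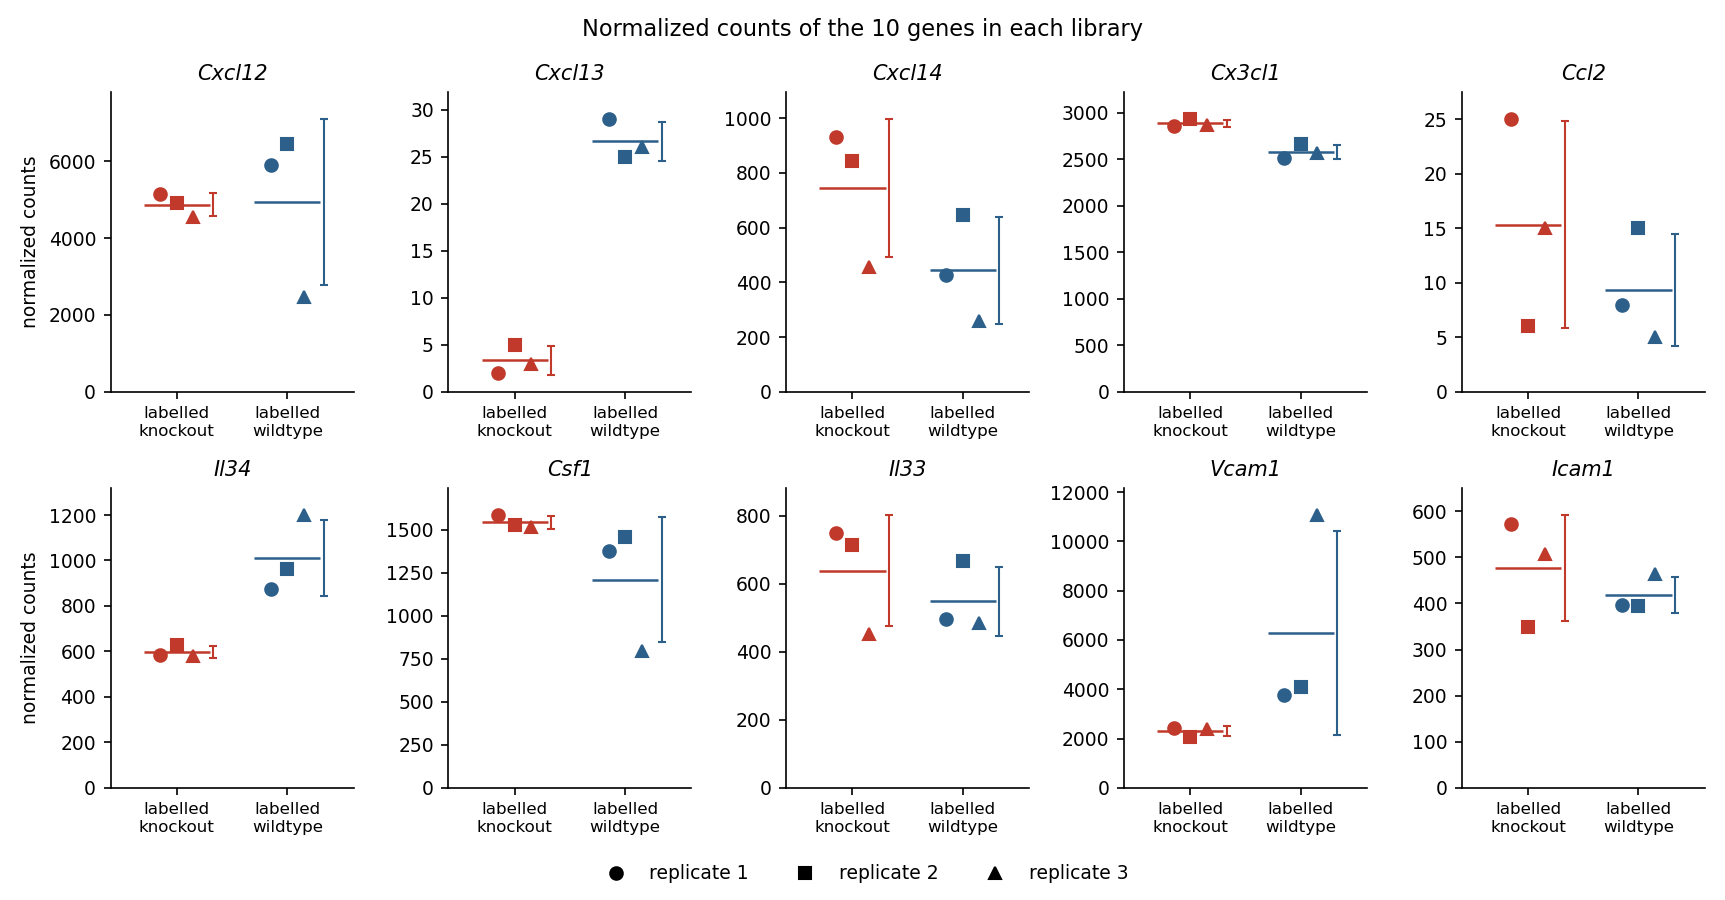
Normalized counts (y axis, from 0) of each gene in the 3 libraries labelled knockout (red) and the 3 labelled wildtype (blue). Symbols mark the replicate number, horizontal lines the mean and bars the SD. Cxcl13, Il34 and Vcam1 do not overlap between labels and are lower in the libraries labelled knockout, and wildtype replicate 3 lies apart from its group in Vcam1, Cxcl12 and Csf1.

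Cxcl13 (chr5:95956939-95961068, mm10), the ligand of CXCR5 that draws B cells and follicular T cells into lymphoid follicles, showed the largest ratio and one of the lowest levels. It had 2, 5 and 3 normalized counts in libraries labelled knockout, against 29, 25 and 26 in those labelled wildtype. Every library labelled wildtype was above every library labelled knockout, and wildtype replicate 3 lay with the other 2. The sums were 10 under the knockout label and 80 under the wildtype label, a ratio of 0.125, with a 95% exact binomial interval of 0.0577 to 0.242 that covers counting error only and takes the scaled values as counts. The log2 difference was -2.73 with a standard error of 0.41 and an adjusted p of 0.0970 by limma, and it was -2.75 without wildtype replicate 3 (adjusted p = 0.0423). Leaving out any other single library gave Cxcl13 an adjusted p between 0.0655 and 0.392 by limma. With a pseudocount of 10 in place of 1 the difference was -1.46, since the gene is near the bottom of the scale. In the authors' deposited table Cxcl13 was 7.65-fold lower with a false discovery rate of 0.00203. Its receptor gene Cxcr5 had 5, 2 and 0 in libraries labelled knockout, against 11, 2 and 2 in those labelled wildtype, too few to compare.

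Cxcl12 (chr6:117168535-117181368), the CXCR4 ligand that retains haematopoietic and immune cells in their niches, was among the most abundant of the 10 genes. It had 5142, 4908 and 4544 normalized counts in libraries labelled knockout, against 5908, 6442 and 2475 in those labelled wildtype. The knockout values lay between wildtype replicate 3, the lowest, and the other 2 wildtype libraries. The log2 difference was 0.09 (SE 0.35, adjusted p = 0.905), with a 95% interval from -0.72 to 0.91. Without wildtype replicate 3 it was -0.34 (adjusted p = 0.0854), so its direction rests on that library.

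Cxcl14 (chr13:56288643-56296811) encodes a chemokine made by epithelia and stroma. It had 933, 842 and 458 normalized counts in libraries labelled knockout, against 426, 647 and 258 in those labelled wildtype. Knockout replicates 1 and 2 were above all wildtype libraries, and knockout replicate 3 fell within their range. The log2 difference was 0.78 (SE 0.39, adjusted p = 0.309), and 0.44 without wildtype replicate 3.

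Cx3cl1 (chr8:94772180-94782427) encodes fractalkine, a membrane-bound chemokine of neurons and endothelium whose receptor CX3CR1 marks resident macrophages. It had 2860, 2930 and 2863 normalized counts in libraries labelled knockout, against 2512, 2663 and 2567 in those labelled wildtype. It was the most even of the 10 genes, with coefficients of variation of 1.37% in the libraries labelled knockout and 2.96% in those labelled wildtype. The log2 difference was 0.16 (SE 0.09, adjusted p = 0.355), with a 95% interval from -0.051 to 0.37, and leaving out any single library kept it between 0.14 and 0.18. Ccl2 (chr11:82035577-82037452), the ligand of CCR2 that recruits monocytes, had 25, 6 and 15 normalized counts in libraries labelled knockout, against 8, 15 and 5 in those labelled wildtype. These overlap, and the log2 difference of 0.58 (SE 0.62, adjusted p = 0.630; 0.25 without wildtype replicate 3) lay within the spread between replicates.

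Il34 and Csf1 encode the 2 ligands of the CSF-1 receptor, on which macrophages and microglia depend. Il34 (chr8:110741829-110805949) had 585, 630 and 580 normalized counts in libraries labelled knockout, against 873, 964 and 1199 in those labelled wildtype. All 3 knockout values were below the lowest wildtype value. The mean was 598.3 ± 27.5 under the knockout label and 1012 ± 168 under the wildtype label (SD, n = 3 each), and the log2 difference was -0.75 (SE 0.15, adjusted p = 0.149). Without wildtype replicate 3 it was -0.62 (adjusted p = 0.0438). Leaving out any other single library gave Il34 an adjusted p between 0.0579 and 0.485 by limma. In the authors' deposited table Il34 was 1.69-fold lower, with a false discovery rate of 0.0015.

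Csf1 (chr3:107741048-107760469) ran the other way. It had 1585, 1526 and 1518 normalized counts in libraries labelled knockout, against 1377, 1461 and 793 in those labelled wildtype. The labels did not overlap, but knockout replicate 3 and wildtype replicate 2 were close, and the distance came mostly from wildtype replicate 3. The log2 difference was 0.40 (SE 0.23, adjusted p = 0.370), and 0.12 without that library. The balance of the 2 ligands within a library is independent of the scaling between libraries. Il34 over Csf1 was 0.369, 0.413 and 0.382 in libraries labelled knockout, against 0.634, 0.660 and 1.51 in those labelled wildtype. Each knockout ratio was below each wildtype ratio, also without wildtype replicate 3. That order, and the order of the shares below, was fixed by Il34 being lower and Csf1 higher without overlap. It is therefore not a further result. Per kilobase of the longest annotated transcript, Il34 made up 46.2%, 49.0% and 47.0% of the level of both ligands in the libraries labelled knockout and 59.6%, 60.5% and 77.9% in those labelled wildtype. With 3 libraries against 3, an exact permutation test of such a ratio could not give a p below 0.1, so none is given.

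**Figure D2:**
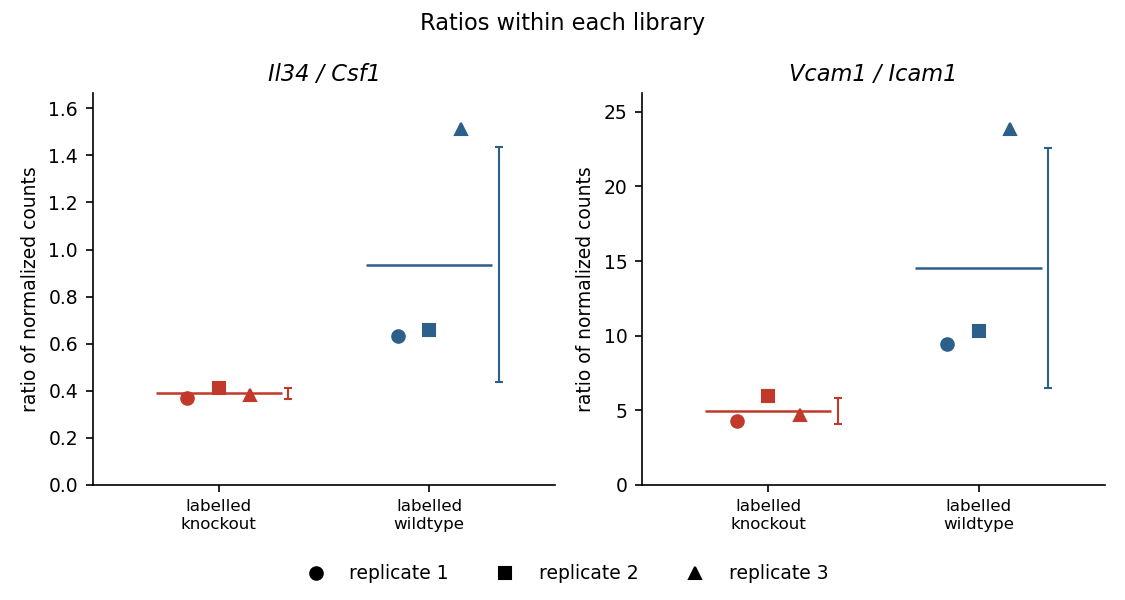
Ratio of normalized counts (y axis, from 0) within each library, Il34 over Csf1 on the left and Vcam1 over Icam1 on the right. Libraries labelled knockout are red and those labelled wildtype blue, symbols mark the replicate number, lines the mean and bars the SD. Each ratio is lower in all 3 libraries labelled knockout, and wildtype replicate 3 is far above the others, at 1.51 and 23.9. For Il34 over Csf1 that order was fixed by the levels of the 2 genes, which do not overlap and differ in opposite directions. For Vcam1 over Icam1 it was fixed by the gap in Vcam1, which is wide against the range of Icam1.

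Il33 (chr19:29925113-29960718) encodes a nuclear cytokine released from damaged stromal and glial cells. It had 750, 714 and 451 normalized counts in libraries labelled knockout, against 496, 666 and 484 in those labelled wildtype. The labels overlapped, with knockout replicate 3 the lowest of the 6, and the log2 difference was 0.20 (SE 0.24, adjusted p = 0.671; 0.12 without wildtype replicate 3).

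Vcam1 (chr3:116110020-116129688) encodes the ligand of the integrins alpha4 beta1 and alpha4 beta7, carried by activated endothelium, stroma and marrow macrophages. It had 2439, 2068 and 2375 normalized counts in libraries labelled knockout, against 3749, 4074 and 11065 in those labelled wildtype. The libraries labelled knockout lay close together and below all wildtype libraries, and wildtype replicate 3 had 2.83 times the mean of the other 2. The log2 difference was -1.27 (SE 0.39, adjusted p = 0.178). Without wildtype replicate 3 it was -0.77 (SE 0.11, adjusted p = 0.0267), smaller but more even. Leaving out any other single library gave Vcam1 an adjusted p between 0.0918 and 0.488 by limma. In the authors' deposited table Vcam1 was 2.74-fold lower, with a false discovery rate of 0.0117; against wildtype replicates 1 and 2 alone the wildtype mean was 1.70 times the knockout mean.

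Icam1 (chr9:21015940-21028814) encodes the ligand of the beta2 integrins LFA-1 and Mac-1. It had 573, 349 and 507 normalized counts in libraries labelled knockout, against 396, 395 and 464 in those labelled wildtype. The labels overlapped, and the log2 difference was 0.16 (SE 0.21, adjusted p = 0.703), with a 95% interval from -0.33 to 0.66. Without wildtype replicate 3 it was 0.24 (adjusted p = 0.498). Vcam1 over Icam1 within a library was 4.26, 5.93 and 4.68 in libraries labelled knockout, against 9.47, 10.3 and 23.9 in those labelled wildtype. That these ratios did not overlap was fixed by the gap in Vcam1, which is wide against the range of Icam1. It is therefore not a further result.

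**Figure D3:**
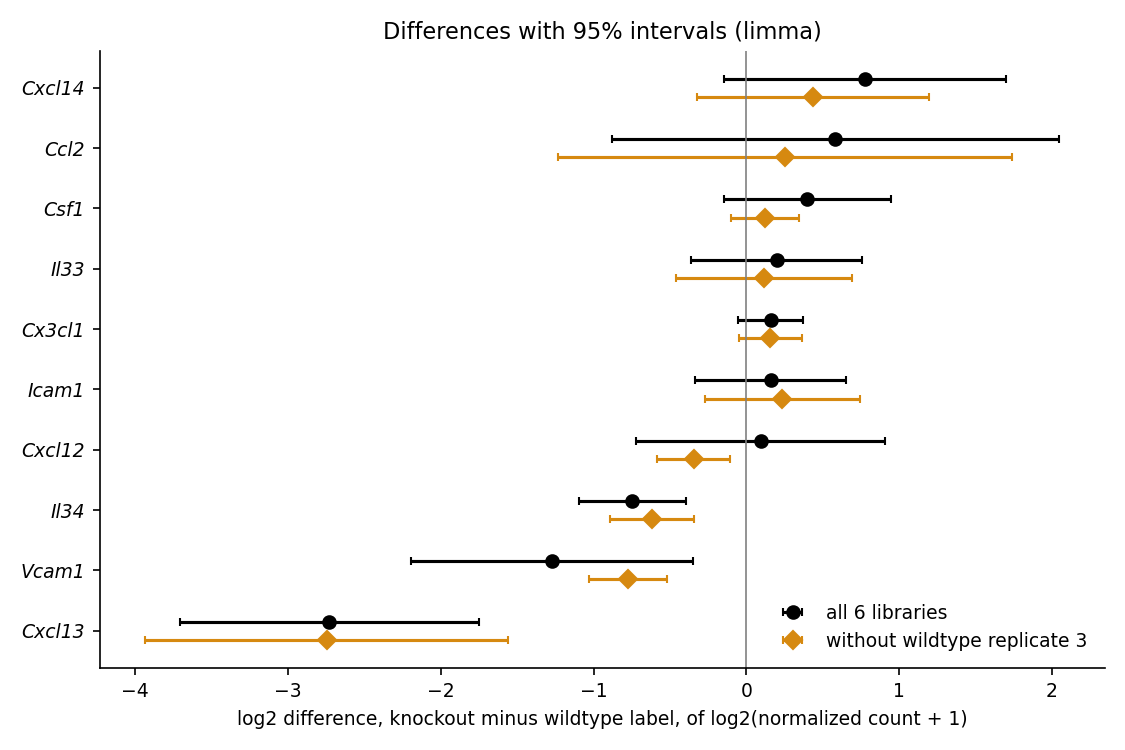
Log2 difference (x axis) of each gene, knockout minus wildtype label, on log2(normalized count + 1), with 95% intervals from limma for all 6 libraries (black circles) and without wildtype replicate 3 (orange diamonds). Without that library Vcam1 is at -0.77 with a narrower interval and Cxcl12 at -0.34, while Cxcl13 stays at -2.75.

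Levels of different genes were compared per kilobase of the longest annotated transcript. In the libraries labelled knockout Cx3cl1 (870.1 ± 11.9) and Cxcl12 (864.5 ± 53.6) led with overlapping ranges, followed by Vcam1 (561.2 ± 48.5), Cxcl14, Csf1, Il34, Il33 and Icam1, then Ccl2 (13.99 ± 8.67) and last Cxcl13 (2.90 ± 1.33; SD, n = 3 each). In the libraries labelled wildtype Vcam1 (1540 ± 1011), Cxcl12 (878.2 ± 382.6) and Cx3cl1 (778.5 ± 23.1) led, each overlapping its neighbour among these 3. Il34 (563.5 ± 93.7) came next, then Csf1, Cxcl14, Il33 and Icam1, then Cxcl13 (23.2 ± 1.8) and last Ccl2 (8.52 ± 4.68). In wildtype order, Csf1, Cxcl14 and Il33 overlapped neighbour by neighbour. In knockout order Vcam1 overlapped Cxcl14, Cxcl14 overlapped Csf1 and Il33 overlapped Icam1. Per kilobase, Il34 was above Csf1 in all 3 libraries labelled wildtype and below it in all 3 labelled knockout, without overlap in either. This crossing depends on the transcript lengths used. In normalized counts Il34 over Csf1 was 0.634 and 0.660 in wildtype replicates 1 and 2, so Csf1 was the higher there.

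The receptors of these ligands were taken as a list of 19 genes, all measured. By limma 0 of 19 passed and 4 were under 0.05 before adjustment, all higher in the libraries labelled knockout, against 10.8% of all genes higher. The authors' deposited table put the same 4 of its 17 rated genes under 0.05, against 4.14% of all rated genes higher. The list median was 0.17, against 0.0060 over all genes. Ptprz1, a receptor-type phosphatase reported as a second receptor of IL-34, had 2732, 2454 and 2206 normalized counts in libraries labelled knockout, against 1618, 1540 and 1307 in those labelled wildtype. The labels did not overlap, and the log2 difference was 0.73 (SE 0.13, adjusted p = 0.132; 0.64 with an adjusted p of 0.0413 without wildtype replicate 3). Csf1r, the shared receptor of Il34 and Csf1 and a macrophage marker, had 3299, 3228 and 2924 in libraries labelled knockout, against 2993, 2602 and 2835 in those labelled wildtype, which overlap (log2 difference 0.17, adjusted p = 0.419).

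Ccr2, the receptor of CCL2 on monocytes, had 139, 108 and 81 normalized counts in libraries labelled knockout, against 46, 45 and 57 in those labelled wildtype, with no overlap. Its log2 difference was 1.11 (SE 0.28, adjusted p = 0.162; 1.21 with an adjusted p of 0.0623 without wildtype replicate 3), and the authors' deposited table gave it as 2.21-fold higher. The monocyte list it also belongs to had 2 positive and 4 negative differences with a median of -1.74, and its summed level ranged from 565 to 603 in the libraries labelled knockout and from 471 to 709 in those labelled wildtype. The integrin chains Itgam and Itgb7, which form receptors of ICAM-1 and VCAM-1, had ratios of 1.52 and 1.80 in the authors' deposited table, both higher in the libraries labelled knockout. Itgam had 539, 537 and 482 in libraries labelled knockout, against 325, 319 and 380 in those labelled wildtype, and Itgb7 had 259, 208 and 190 in libraries labelled knockout, against 148, 129 and 88 in those labelled wildtype. By limma their log2 differences were 0.61 and 0.86 (adjusted p = 0.161 and 0.172). Without wildtype replicate 3 Itgam passed at 0.69 (adjusted p = 0.0441), and Itgb7 was at 0.65 (adjusted p = 0.0936). Itgb1, the most abundant chain, had a difference of -0.32 and Itgb2, the partner of Itgam, -0.099.

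**Figure D4:**
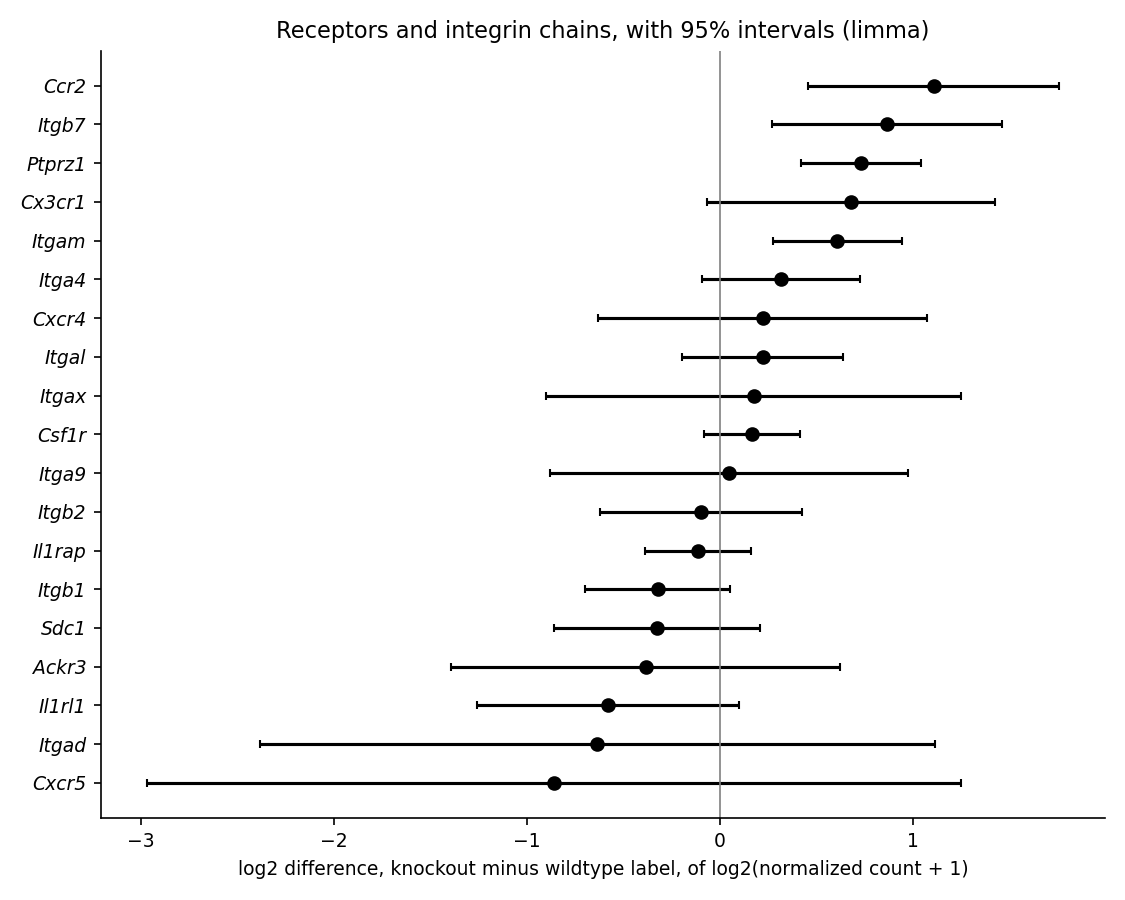
Log2 difference (x axis), knockout minus wildtype label, of the 19 receptors and integrin chains that bind products of the 10 genes, with 95% intervals from limma on log2(normalized count + 1). Ccr2, Itgb7, Ptprz1 and Itgam lie above 0 with their intervals, at 1.11, 0.86, 0.73 and 0.61, and Cxcr5 and Itgad, with few counts, have the widest intervals.

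Around these genes, 140 genes of 8 lists (the receptors, other chemokines and their receptors, other growth factors, IL-1 family cytokines, adhesion molecules, NF-kB response genes and shedding enzymes) were examined, of which 121 were measured. By limma on all 6 libraries 0 passed, 17 (14.0%) were under 0.05 before adjustment, against 20.0% of all genes, and 5 passed without wildtype replicate 3. The authors' deposited table put 8.7% of 92 rated genes under 0.05, against 7.39% of all rated genes. Of 27 other chemokines measured, 16 had a rate in the authors' deposited table. It called 1 as lower, against 3.25% of all rated genes lower. That was Ppbp, a platelet chemokine. Ppbp had 2, 3 and 4 normalized counts in libraries labelled knockout, against 52, 69 and 12 in those labelled wildtype (ratio of sums 0.0677, 95% exact binomial interval 0.0303 to 0.132). Its log2 difference was -3.22 (adjusted p = 0.155), and -3.96 without wildtype replicate 3 (adjusted p = 0.0163). The platelet chemokine Pf4 had 87, 79 and 123 in libraries labelled knockout, against 147, 177 and 75 in those labelled wildtype, which overlap. Cxcl16 and Ccl27a, the most abundant other chemokines, had log2 differences of 0.073 and -0.0036.

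Of 14 other chemokine receptors measured, 8 had a rate in the authors' deposited table, which called 1, Ccr10, 2.42-fold higher, against 4.14% of all rated genes higher. Ccr10 had 136, 95 and 130 in libraries labelled knockout, against 60, 45 and 44 in those labelled wildtype. Ackr1, the atypical receptor that binds chemokines on venules and red cells, had 887, 1206 and 1012 in libraries labelled knockout, against 1690, 1717 and 660 in those labelled wildtype, and its log2 difference of -0.27 was -0.73 without wildtype replicate 3 (adjusted p = 0.0448) and 9.2e-04 after a correction for transcript length. Among 9 other growth factors, Il7 had 3, 4 and 5 in libraries labelled knockout, against 9, 12 and 87 in those labelled wildtype. The authors' deposited table called it, as the only one of 6 with a rate, against 3.25% of all rated genes lower. There Il7 was 8.65-fold lower, a size set mostly by wildtype replicate 3. Its limma difference of -2.19 was -1.21 without that library. Kitl, the most abundant, had a difference of 0.15. Of 5 other IL-1 family cytokines limma called 0 (0 with an unadjusted p under 0.05). Of these, 3 had a rate in the authors' deposited table and 0 were called there, with Il18 at -0.49 and Il18bp at -0.035.

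Among 20 other adhesion genes, 0 were called by limma, and 0 of the 17 with a rate in the authors' deposited table. By limma 4 had an unadjusted p under 0.05, 1 higher and 3 lower, against 10.8% of all genes higher and 9.20% lower. Jam3 and Jam2, junctional adhesion molecules and the most abundant, had log2 differences of -0.47 and -0.21 (adjusted p = 0.181 and 0.285 by limma), with no overlap between labels. Of the 20 genes, 4 were lower and 1 higher without overlap, against 14.9% and 13.6% of all genes. Podxl, a sialomucin of endothelium named here after its values were seen, had a difference of 0.48 (0.64 with an adjusted p of 0.0330 without wildtype replicate 3). Of 19 NF-kB response genes, limma called 0. Before adjustment 3 were higher and 1 lower with a p under 0.05, against 10.8% and 9.20% of all genes. Of the 19, 17 had a rate in the authors' deposited table. It called 1, Traf1, a TNF receptor adaptor, as 1.80-fold higher, against 4.14% of all rated genes higher. Traf1 had 291, 241 and 215 in libraries labelled knockout, against 153, 143 and 120 in those labelled wildtype. Its log2 difference was 0.84 (adjusted p = 0.161 by limma). Sod2 and Nfkbia, the most abundant, had differences of -0.044 and -0.78, and Nfkbia was at -0.16 without wildtype replicate 3, which had 6182 normalized counts. The list median was -0.010. Of 10 enzymes that shed or trim these ligands and their inhibitor, 0 were under 0.05 by limma before adjustment and 0 of the 9 with a rate were called in the authors' deposited table. Adam10, the sheddase of fractalkine, had a difference of -0.21 and Timp3, the inhibitor, -0.44, or -0.18 without wildtype replicate 3.

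Marker lists of cell types that carry the 10 genes moved unevenly between the labels, and their part in the differences above was not tested. All 12 endothelial markers were measured, 10 of them had positive differences and none was at 0, and their summed level ranged from 18962 to 23361 in the libraries labelled knockout and from 16413 to 17810 in those labelled wildtype. Vcam1 per 1000 counts of the endothelial list was 129, 108 and 102 in libraries labelled knockout, against 228, 244 and 621 in those labelled wildtype. That this did not overlap was fixed, since every library labelled knockout had a higher list sum and a lower Vcam1 value. The 15 macrophage markers summed to between 15749 and 18023 in libraries labelled knockout, against 17335 to 18063 in those labelled wildtype, with a median difference of -0.045. The 10 mural markers summed to between 25742 and 31277 in libraries labelled knockout, against 22437 to 29062 in those labelled wildtype, and the 10 fibroblast markers to between 71379 and 79705 in libraries labelled knockout, against 77775 to 89611 in those labelled wildtype. On the scale of each of these 3 lists Vcam1 and Il34 were also lower in every library labelled knockout than in any labelled wildtype. That order was fixed as well, by the gaps in Vcam1 and Il34 and the narrower ranges of the list sums. It is therefore not a further result.

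Blood and marrow markers differed more. The 13 measured red cell markers had negative differences in every case, and summed to 4057, 3943 and 2744 in libraries labelled knockout, against 10906, 11429 and 34862 in those labelled wildtype. The 15 neutrophil and marrow markers summed to 833, 461 and 120 in libraries labelled knockout, against 939, 1168 and 2819 in those labelled wildtype, with 14 negative differences. Wildtype replicate 3 was highest in both lists, as it was in Vcam1, Il34 and Il7. Of the 10 genes it was the highest in 2 and the lowest in 4, Cxcl12 among the 4. Over all 17666 genes it was the highest in 4872 and the lowest in 4646. Vcam1 per 1000 counts of the red cell list was 601, 524 and 865 in libraries labelled knockout, against 344, 357 and 317 in those labelled wildtype, so on that scale it was higher in the libraries labelled knockout. Il34 per 1000 counts of that list was 144, 160 and 211 in libraries labelled knockout, against 80.05, 84.35 and 34.4 in those labelled wildtype, also higher without overlap. On the neutrophil and marrow scale both genes overlapped between labels. The 12 measured lymphocyte markers summed to 154, 219 and 143 in libraries labelled knockout, against 225, 231 and 363 in those labelled wildtype. The marrow stroma list, whose cells are a main source of Cxcl12 in bone marrow, summed to between 14367 and 15274 in libraries labelled knockout, against 12362 to 14938 in those labelled wildtype. Markers of tissue beside the nerve differed as well. All 10 organ of Corti markers had positive differences, and they summed to 25760, 28491 and 12084 in libraries labelled knockout, against 5985, 4896 and 13372 in those labelled wildtype, which overlap through replicate 3 of each label. All 6 lateral wall markers measured had negative differences, with wildtype replicate 3 the highest in sum, and their median of -0.28 was 0.10 without that library. No marker of these lists was at 0 in all libraries of a label.

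**Figure D5:**
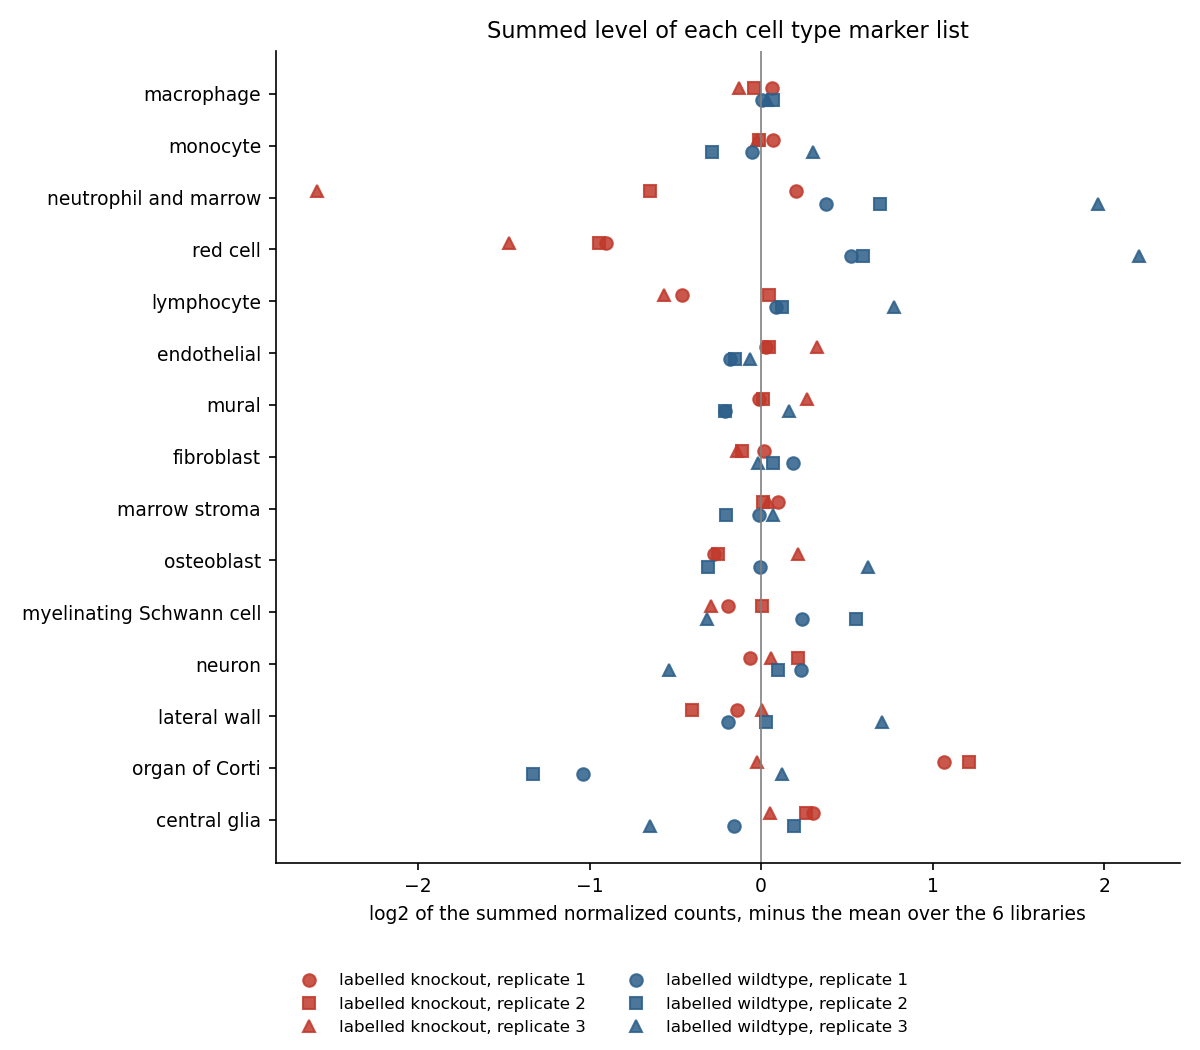
Summed normalized counts of each cell type marker list, as log2 minus the mean over the 6 libraries (x axis), with libraries labelled knockout in red above those labelled wildtype in blue. Red cell and neutrophil and marrow lists are lowest in knockout replicate 3 and highest in wildtype replicate 3, and the endothelial list is higher in all 3 libraries labelled knockout.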

How the data were processed

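RNA of auditory nerves was sequenced from 3 mice labelled FactorB KO and 3 labelled wildtype. Per the labels' protocols, the miRNeasy kit was used for total RNA, degraded samples were left out, and Illumina's TruSeq kit was used for libraries. The submitters' processing notes list Partek, TopHat2 and DESeq2 and the build mm10, with no role or version. Filters, strand use and read depth are something the sources used here do not give. Deposited values are a score: counts that the authors scaled per library and rounded, as read from the values. The authors' deposited table also holds another measure, the signed fold change and false discovery rate, per the file headers, with no rate for 2061 genes. The number of sample columns left unused was 0.

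The scores are not raw counts, so limma 3.58.1 in R 4.3.3 was fitted on log2(value + 1) over 17666 genes with label as the only term and a trend, after a filter at a mean of 1. Adjusted p-values follow Benjamini and Hochberg over all genes, with a threshold of 0.05. Fold changes on this scale understate changes of low genes. The fit was tested on simulated data. Transcript lengths, from GENCODE M21, covered 98.3% of genes. The correction for transcript length and the comparison of same-numbered libraries used genes with a mean of at least 25, a minimum raised from a lower one after results had been seen, which moved small values (Ackr1 did not turn under the lower one). The p-values weigh the difference between labels against the spread between these samples. They take the mice as independent, and the labels do not say that mice were independent litters.

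The 10 genes and all lists were chosen with earlier results of these data known. The text names Cfb, the 10 genes, in each pathway list up to 4 genes called by limma or in the authors' deposited table and the 2 most abundant, and the most abundant cell type markers, apart from some that are not reported here. Pf4, Cxcr5, Itgb2 and Podxl, and in the closing observations Ackr3 and Cxcr4, were named after their values were seen.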

Additional observations from a re-analysis of the deposited data

How the results depend on the processing

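The 10 genes gave 0 calls by limma under every alternative tried other than leaving out single libraries, where the count ranged from 0 to 3, the 3 being reached without wildtype replicate 3. The pathway genes gave 0 to 5 calls when single libraries were left out, and 0 under the other alternatives. Over all genes limma called 28. The count was 16 without a trend, 7 with the replicate block, and 0 to 566 when single libraries were left out. It was 0 without any one library labelled knockout, where 1797 to 2218 genes had an unadjusted p under 0.05, and 566 without wildtype replicate 3. Same-numbered libraries had correlated deviations of -0.048, 0.078 and 0.214, and 3 of 6 correlated best with their own number. The labels do not say that a number marks a pair, so the block is only a hint; with it, 0 of the 10 genes passed.

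The direction of Cxcl12 turned under 2 alternatives: -0.091 after a correction for transcript length, and a range from -0.34 to 0.35 when single libraries were left out. Directions turned for abundant genes near 0: Cxcl16 (-0.12 to 0.23), Ccl27a (-0.18 to 0.084; 0.30 after the length correction), Kitl (-0.12 to 0.42; -0.041), Il18bp (-0.17 to 0.078; 0.046) and Ackr1 (9.2e-04 after the length correction). The cause was not tested. Other scalings, pseudocounts and filters turned none of the 10 genes. Depth is unknown, which limits Cxcl13 and Ccl2 most.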

Other observations

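Ackr3, the atypical receptor that removes CXCL12, had 1658, 1236 and 1645 normalized counts in libraries labelled knockout, against 1109, 1718 and 3954 in those labelled wildtype, while Cxcr4, the signalling receptor, had 505, 445 and 388 in libraries labelled knockout, against 428, 601 and 214 in those labelled wildtype. Ackr3 over Cxcr4 was thus 3.28, 2.78 and 4.24 in the libraries labelled knockout, and 2.59, 2.86 and 18.5 in those labelled wildtype. Cxcl12 over Cxcr4 stayed between 10.2 and 11.7 in the libraries labelled knockout and between 10.7 and 13.8 in those labelled wildtype, wildtype replicate 3 included at 11.6. Cxcl12 and Cxcr4 were both lowest in that library.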
